A study of Mus musculus with 6 samples.

Results

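MHC class I antigen processing was described in CNS monocytes through 10 genes: the heavy chain genes *H2-K1* and *H2-D1*, the light chain gene *B2m*, the peptide transporter and loading genes *Tap1*, *Tap2*, and *Tapbp*, the immunoproteasome subunit genes *Psmb8*, *Psmb9*, and *Psmb10*, and the transactivator gene *Nlrc5*. They were chosen by symbol for their roles in the pathway, and all 10 were found among the 54232 genes listed and among the 11254 genes tested. The cells were GFP-CD45+CD11b+Ly6ChiLy6G- monocytes, sorted at the peak of EAE, a mouse model of multiple sclerosis, from mixed BM chimera mice and measured by RNA-seq in 3 WT and 3 *Ifnar1*-/- libraries. IFNAR1 is a chain of the receptor shared by all type I IFNs. The irradiated recipients were GFP+ and received equal numbers of BM cells from WT (CD45.1) donors and *Ifnar1*-/- (CD45.2) donors, so donor cells of both genotypes developed side by side in the same hosts. All mice were given 30000 IU of IFN-β per day, and no library came from untreated mice. The comparison therefore addressed how class I genes differed between monocytes with and without the receptor under IFN-β treatment, and the CD45 allele of the donors cannot be told apart from the *Ifnar1* genotype.

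MHC class I molecules show peptides from inside the cell to CD8+ T cells. Proteasomes cut proteins into peptides, the TAP1-TAP2 transporter carries the peptides into the endoplasmic reticulum, tapasin (*Tapbp*) holds the empty class I molecule at the transporter, and a heavy chain paired with β2-microglobulin then takes the peptide to the cell surface. Interferons are known to raise many of these genes, through STAT and IRF factors and through NLRC5, which acts on class I promoters, and in interferon-exposed cells the catalytic subunits PSMB8, PSMB9, and PSMB10 take the places of the constitutive subunits PSMB5, PSMB6, and PSMB7.

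Expected counts totaled from 4531782 to 7321380 per library, and every class I gene had at least 381 of them in every library, far above 3 counts, the detection floor, which corresponded to between 0.410 and 0.662 CPM and covers counting error only. Mitochondrial and ribosomal RNA genes made up between 13.0% and 18.4% of the total in the WT group against between 16.0% and 23.6% in the *Ifnar1*-/- group. *Ifnar1* itself had 153, 126, and 111 normalized CPM (counts scaled to the library size as adjusted by the TMM method) in the WT group (libraries 1, 2, and 3) against 110, 102, and 109 in the *Ifnar1*-/- group (log2 fold change 0.28 ± 0.15 SE, adjusted p = 0.360, edgeR). Gene-level counts do not show which exons the reads covered, so this level does not check the genotype. All 10 monocyte markers were tested, and their summed level was from 12918 to 13555 normalized CPM in WT and from 14937 to 15753 in *Ifnar1*-/- libraries. Of these, 5 had a positive and 5 a negative log2 fold change, and 1 was called. This was *Ly6c2*, which encodes the sort marker Ly6C and was higher in WT (718 ± 74.6 against 271 ± 83.9 normalized CPM, SD, n = 3 each; adjusted p = 0.00957, edgeR). *Ccr2* was lower in WT and not called (643 ± 53.7 against 989 ± 248; adjusted p = 0.143, edgeR). Among markers of other cells, summed T cell markers ranged from 22.3 to 53.9 normalized CPM in WT and from 8.30 to 23.5 in *Ifnar1*-/- libraries, with none of the 10 at 0 in all libraries, and summed NK cell markers from 5.74 to 21.5 and from 1.69 to 5.93, with *Klra8* at 0. Neutrophil markers summed to between 465 and 2288 and between 919 and 2519, and microglial markers to between 293 and 338 and between 332 and 398. The sums for oligodendrocyte markers were from 74.4 to 103 in WT and from 62.9 to 67.5 in *Ifnar1*-/- libraries, with *Mog* at 0, for plasmacytoid dendritic cell markers from 71.4 to 100 and from 59.8 to 81.1, with *Cd209d* at 0, and for conventional dendritic cell markers from 24.2 to 31.7 and from 15.8 to 27.5. The part of these cells in the class I values was not tested. In bulk libraries, fewer cells of a type and less RNA per cell cannot be told apart.

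All 10 class I genes had a higher mean in WT than in *Ifnar1*-/- monocytes, and 1 of them, *Nlrc5*, passed the test. Fold changes divide WT by *Ifnar1*-/-, and a gene was called when its adjusted p in the edgeR quasi-likelihood test was at most 0.05 and its fold change at least 1.5, as for 2.13% of all genes tested (1.67% higher in WT and 0.462% lower). In 6 genes (*Nlrc5*, *H2-K1*, *H2-D1*, *B2m*, *Tapbp*, and *Tap1*) the lowest WT library exceeded the highest *Ifnar1*-/- library, against 11.1% of all genes tested. The same 6 had an unadjusted p under 0.05 in the edgeR test with the higher level in WT, against 9.69% of all genes. The median log2 fold change of the 10 genes was 0.58, with a range from 0.06 to 0.83, and the median of all genes tested was -0.01. No statement of separate animals for each library was found, so p-values measure only the spread between these libraries.

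**Figure D1:**
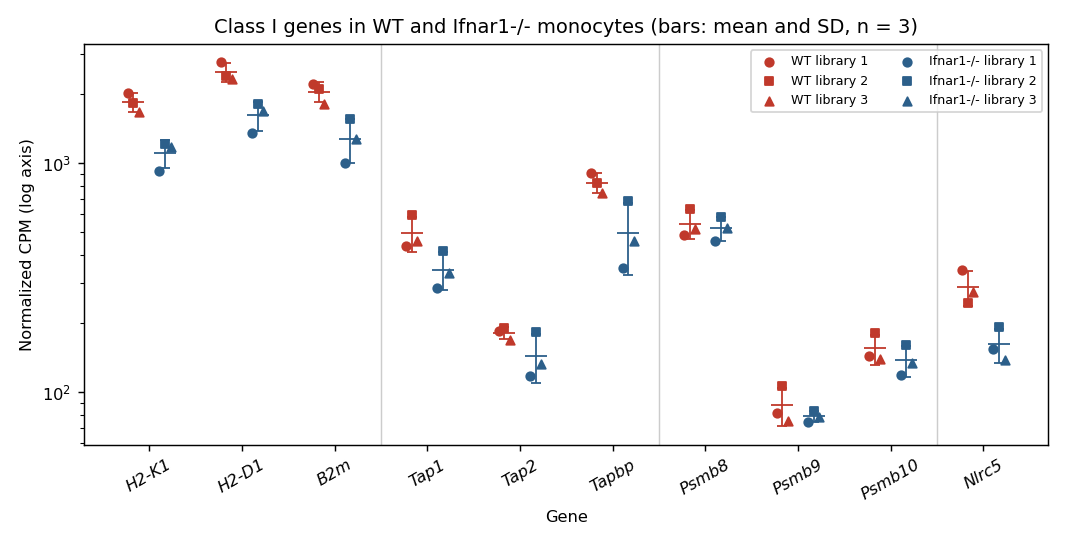
Normalized CPM of the 10 class I genes (vertical log axis) in each of the 3 WT and 3 *Ifnar1*-/- libraries, with each point a library and bars for the group mean and SD. The WT libraries lie wholly above the *Ifnar1*-/- libraries for 6 genes, among them *Nlrc5* (288 against 162 on average), and overlap them for *Tap2*, *Psmb8*, *Psmb9*, and *Psmb10*.

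*Nlrc5* (ENSMUSG00000074151.13, chr8:94434356-94527272, plus strand of GRCm38) encodes a NOD-like receptor protein that serves as the transactivator of class I genes. It had 343, 245, and 275 normalized CPM in the WT group (libraries 1, 2, and 3) against 155, 193, and 139 in the *Ifnar1*-/- group. The lowest WT library was above the highest *Ifnar1*-/- library, and the gap between them was narrower than the range within either group. The means were 288 ± 50 and 162 ± 27.7 (SD, n = 3 libraries each), a 1.77-fold difference (log2 fold change 0.83 ± 0.18 SE, adjusted p = 0.0466, edgeR). The adjusted p lay near the threshold. It was 0.0678 with libraries of equal number as a replicate block, 0.0700 with offsets for GC content and length, and from 0.0479 to 0.206 when each library was left out in turn, and the call was lost with the block, with the offsets, and without WT library 1 or 3 or *Ifnar1*-/- library 1 or 3. An antisense gene, *9330175E14Rik*, overlaps *Nlrc5* on the opposite strand over 748 bases and had 322 expected counts in all libraries together.

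Both classical heavy chain genes and the light chain gene had higher levels in every WT library, by 1.55 to 1.67-fold, and none of the 3 passed the adjusted threshold. *H2-K1* (ENSMUSG00000061232.15, chr17:33996017-34000347, minus strand) had 2028, 1841, and 1685 normalized CPM in the WT group (libraries 1, 2, and 3) against 926, 1218, and 1185 in the *Ifnar1*-/- group. The lowest WT value exceeded the highest *Ifnar1*-/- value, and *Ifnar1*-/- library 1 was the lowest of the 6. The fold change was 1.67 (log2 0.74 ± 0.18 SE, 95% interval 0.35 to 1.13, adjusted p = 0.0664, edgeR). *H2-D1* (ENSMUSG00000073411.11, chr17:35262730-35267499, plus strand) had 2767, 2407, and 2344 normalized CPM in the WT group against 1363, 1808, and 1691 in the *Ifnar1*-/- group. Again the groups did not overlap, and the fold change was 1.55 (log2 0.63 ± 0.18 SE, 95% interval 0.23 to 1.03, adjusted p = 0.114). *B2m* (ENSMUSG00000060802.8, chr2:122147686-122153083, plus strand), the light chain shared by all class I molecules, had 2229.9, 2112, and 1825 normalized CPM in the WT group against 1001, 1556, and 1284 in the *Ifnar1*-/- group. Its WT libraries were all higher, with *Ifnar1*-/- library 2 closest to them, at a fold change of 1.61 (log2 0.68 ± 0.20 SE, 95% interval 0.24 to 1.12, adjusted p = 0.118). DESeq2, run as an alternative, called all 3, with adjusted p of 0.000791 for *H2-K1*, 0.00767 for *H2-D1*, and 0.0118 for *B2m*.

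*H2-K1* and *H2-D1* were the only class I genes of the 10 whose expected counts were not whole numbers (tolerance 0.005), which means that reads fitting several genes had been divided between them and similar genes, so their separate values are uncertain. Summed over the 12 class I heavy chain genes listed and tested (*H2-K1*, *H2-D1*, *H2-K2*, *H2-M3*, and 8 H2-Q and H2-T genes, without *H2-Q5*, which was on no list), the level was 6285, 5683, and 5319 normalized CPM in the WT group against 2817, 3762, and 3549.8 in the *Ifnar1*-/- group. These sums, which the division of reads among the 12 genes cannot move but their division with other genes can, did not overlap and differed 1.71-fold (exact permutation test, two-sided, p = 0.1, the smallest that 3 libraries against 3 can give). *H2-K1* and *H2-D1* together took 76.3%, 74.8%, and 75.7% of the summed counts in the WT group against 81.3%, 80.5%, and 81.0% in the *Ifnar1*-/- group (exact permutation p = 0.1), a smaller share in each WT library, and this share, unlike the sum, depends on how reads were divided between the classical pair and the others.

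Class I promoters carry a conserved array of elements, and the promoters of *H2-K1*, *H2-D1*, and *B2m*, together with the interval between *Psmb9* and *Tap1*, are shown because the values of these genes are compared with each other. The windows were the 250 bases before the RefSeq gene start, read 5′ to 3′ on the strand of the gene, except for *Psmb9* and *Tap1*, which start from opposite strands and for which the 225 bases between their starts were read on the plus strand. The motifs searched on both strands were GAANNGAAA (interferon response element core of class I genes), GAAANNGAA (interferon-stimulated response element), TTCNNNGAA (gamma-activated site), GGGNNTTCC (a kappa B site), TGACG (core of the X2 box), and CCAAT (Y box), of which the first pair can overlap. Capitals mark matches, which on the reverse strand read TTTCACTTC for the interferon element and ATTGG for the Y box. The sequences and coordinates are from RefSeq on GRCm38.p6, where 8 of the 10 genes had an entry and *Tap2* and *Nlrc5* had none.
H2-K1, chr17:34000348-34000597, minus strand: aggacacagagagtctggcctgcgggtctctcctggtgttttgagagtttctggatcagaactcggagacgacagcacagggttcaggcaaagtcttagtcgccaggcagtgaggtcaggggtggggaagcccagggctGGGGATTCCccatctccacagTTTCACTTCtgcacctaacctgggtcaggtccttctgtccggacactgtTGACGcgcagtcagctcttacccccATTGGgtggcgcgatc
H2-D1, chr17:35262844-35263093, plus strand: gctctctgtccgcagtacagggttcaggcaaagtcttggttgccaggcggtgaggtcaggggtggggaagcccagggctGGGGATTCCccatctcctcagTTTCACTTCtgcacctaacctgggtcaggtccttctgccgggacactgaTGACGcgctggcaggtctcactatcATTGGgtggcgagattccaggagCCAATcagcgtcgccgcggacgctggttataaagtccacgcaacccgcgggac
B2m, chr2:122147437-122147686, plus strand: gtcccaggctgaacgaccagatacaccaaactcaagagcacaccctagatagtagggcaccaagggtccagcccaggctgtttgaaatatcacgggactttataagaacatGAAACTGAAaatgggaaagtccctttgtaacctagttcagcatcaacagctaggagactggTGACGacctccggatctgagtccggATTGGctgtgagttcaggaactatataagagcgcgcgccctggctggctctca
Psmb9-Tap1, chr17:34187331-34187555, plus strand: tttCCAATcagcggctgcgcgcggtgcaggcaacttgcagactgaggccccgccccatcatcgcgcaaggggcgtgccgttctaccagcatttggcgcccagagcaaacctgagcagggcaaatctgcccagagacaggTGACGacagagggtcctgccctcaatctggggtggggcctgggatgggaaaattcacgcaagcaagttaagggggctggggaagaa

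In *H2-K1* and *H2-D1* the kappa B site was followed 21 bases downstream by the interferon element and, 49 bases further, by the X2 core (distances between first bases). Of 32544 promoter windows of this length, the kappa B site matched in 5.00%, the interferon core of class I genes in 6.35%, the interferon-stimulated response element in 7.15%, the gamma-activated site in 7.04%, the X2 core in 17.8%, and the Y box in 33.8%. The X2 core stood 25 bases upstream of an ATTGG match in *H2-K1*, *H2-D1*, and *B2m* alike. A second Y box (CCAAT) was found in *H2-D1*. *B2m* held a GAAANNGAA match upstream of its X2 core, and no match to GGGNNTTCC or to GAANNGAAA was found in its window. Kappa B sites of other spacing were not searched, so the window is not shown to lack one. The *Psmb9*-*Tap1* interval held a Y box at the *Psmb9* end and an X2 core, the *Tapbp* window 2 Y boxes, the *Psmb8* window a gamma-activated site, and the *Psmb10* window no match. These matches describe letters in a window and not binding.

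Of the genes for peptide transport and loading, *Tapbp* and *Tap1* had every WT library above every *Ifnar1*-/- library and *Tap2* did not, and none passed the adjusted threshold. *Tapbp* (ENSMUSG00000024308.14, chr17:33915899-33929292, plus strand) had 908, 822, and 742 normalized CPM in the WT group (libraries 1, 2, and 3) against 350.3, 685, and 456 in the *Ifnar1*-/- group. The *Ifnar1*-/- libraries were spread widely, and library 2 of that group came within reach of WT library 3. The fold change was 1.66 (log2 0.73 ± 0.23 SE, 95% interval 0.22 to 1.24, adjusted p = 0.145, edgeR). Without *Ifnar1*-/- library 2 it was called, at a log2 fold change of 1.05 and an adjusted p of 0.0414. *Zbtb22*, a gene on the same strand that shares 3422 bases with the annotated range of *Tapbp*, had a log2 fold change of 0.07, with means of 35.3 and 33.6 normalized CPM.

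*Tap1* (ENSMUSG00000037321.17, chr17:34187553-34197225, plus strand), a subunit of the peptide transporter, had 436, 594, and 459 normalized CPM in the WT group against 287, 414, and 331 in the *Ifnar1*-/- group. WT library 1 was just above *Ifnar1*-/- library 2, and the fold change was 1.44 (log2 0.53 ± 0.19 SE, 95% interval 0.11 to 0.94, adjusted p = 0.178, edgeR). *Tap2* (ENSMUSG00000024339.12, chr17:34203527-34216321, plus strand), its partner subunit, had 186, 191, and 169 normalized CPM in the WT group against 118, 184, and 132 in the *Ifnar1*-/- group. Here *Ifnar1*-/- library 2 lay within the WT range, and the interval of the log2 fold change ran from -0.06 to 0.73 around 0.33 (adjusted p = 0.359). The *Tap1* to *Tap2* ratio did not separate the groups (difference of log2 ratios 0.17 ± 0.16 SE, exact permutation p = 0.4). This test cannot give a p below 0.1 here, so it cannot decide whether the transporter subunits changed unequally.

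**Figure D2:**
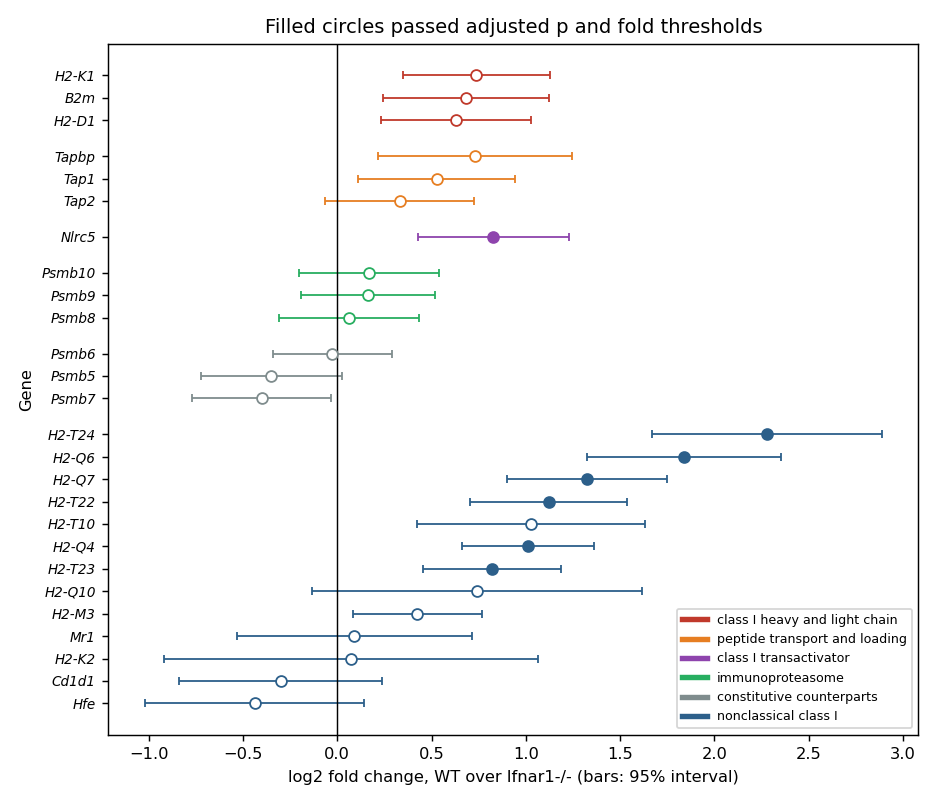
Log2 fold change of WT over *Ifnar1*-/- (horizontal axis) with its 95% interval for the 10 class I genes, the constitutive subunits *Psmb5*, *Psmb6*, and *Psmb7*, and the 13 tested nonclassical class I genes, from the edgeR fit over all genes, with filled circles for called genes. *Nlrc5*, at 0.83, is the filled circle among the 10 genes, and the 3 immunoproteasome genes are between 0.06 and 0.17 with intervals across 0.

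The 3 immunoproteasome genes did not differ detectably between WT and *Ifnar1*-/- monocytes, and the intervals of their fold changes ended below 1.5-fold. *Psmb8* (ENSMUSG00000024338.14, chr17:34197721-34201454, plus strand), which takes the place of PSMB5, had 484, 633, and 516 normalized CPM in the WT group (libraries 1, 2, and 3) against 456, 583, and 523 in the *Ifnar1*-/- group. The groups overlapped almost wholly, at a fold change of 1.05 (95% interval 0.808 to 1.35, adjusted p = 0.881, edgeR). *Psmb9* (ENSMUSG00000096727.2, chr17:34181987-34187764, minus strand), which takes the place of PSMB6, had 81.5, 107, and 75.2 normalized CPM in the WT group against 74.5, 83.2, and 78.0 in the *Ifnar1*-/- group. WT library 2 was the highest and the other 5 libraries lay close together, and the fold change was 1.12 (95% interval 0.875 to 1.43, adjusted p = 0.639). *Psmb10* (ENSMUSG00000031897.9, chr8:105935735-105938444, minus strand), which takes the place of PSMB7, had 144, 182, and 140.4 normalized CPM in the WT group against 119, 162, and 135 in the *Ifnar1*-/- group. Its groups overlapped as well, at a fold change of 1.12 (95% interval 0.868 to 1.45, adjusted p = 0.644).

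The constitutive counterparts had lower means in WT than in *Ifnar1*-/- libraries, and none was called. *Psmb5* averaged 43.2 ± 9.71 normalized CPM in WT and 54.8 ± 1.09 in *Ifnar1*-/- libraries (log2 fold change -0.35, adjusted p = 0.306, edgeR), *Psmb7* averaged 46.8 ± 8.66 and 61.7 ± 7.57 (-0.40, adjusted p = 0.242), and *Psmb6* averaged 87.9 ± 11.5 and 89.4 ± 4.02 (-0.03, adjusted p = 0.951; SD, n = 3 libraries each). Ratios of TPM (a level per transcript length) within each library were compared next, since they need no scaling between libraries. They were not computed with offsets for GC content, and effects of GC content can remain in a ratio of unlike genes. The *Psmb8* to *Psmb5* ratio was 9.33, 8.22, and 9.36 in the WT group against 5.78, 7.75, and 6.56 in the *Ifnar1*-/- group. The *Psmb10* to *Psmb7* ratio was 3.09, 3.50, and 3.42 in the WT group against 1.81, 2.92, and 2.59 in the *Ifnar1*-/- group. Both ratios were higher in each WT library, by 1.35-fold and 1.39-fold, whereas the *Psmb9* to *Psmb6* ratio overlapped, at 0.528, 0.574, and 0.484 in WT and 0.421, 0.572, and 0.501 in *Ifnar1*-/- libraries. Without *Ifnar1*-/- library 1, the difference of log2 ratios went from 0.48 to 0.28 for *Psmb10* to *Psmb7* and from 0.43 to 0.33 for *Psmb8* to *Psmb5*. With 9 ratios compared, the exact permutation p of 0.1 for each of the first pair became 0.225 after Benjamini-Hochberg adjustment. That of *Psmb9* to *Psmb6* was 0.6 (adjusted 0.771). For 3 libraries against 3, 0.1 is the smallest p this test can give, so no ratio could pass the threshold used for calls. The test therefore cannot decide whether the ratios of the first pair differed between the groups.

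*Psmb9* and *Tap1* start, by RefSeq, at the ends of the interval printed above and overlap by 212 bases on opposite strands in the annotation of the counts. Their ratio in TPM was 0.433, 0.407, and 0.370 in the WT group against 0.523, 0.492, and 0.567 in the *Ifnar1*-/- group. Each WT ratio was below each *Ifnar1*-/- ratio, and the difference of log2 ratios was -0.39 ± 0.09 SE (exact permutation p = 0.1, adjusted p = 0.225 over the 9 ratios). *Psmb9* and *Psmb8*, which lie on either side of *Tap1*, had a ratio that did not separate the groups (0.01 ± 0.10 SE, exact permutation p = 1.0). Among the surface molecules, the *H2-K1* to *B2m* ratio differed by 0.00 ± 0.09 SE on the log2 scale (exact permutation p = 1.0) and the *H2-D1* to *B2m* ratio by -0.14 ± 0.11 SE (exact permutation p = 0.3). These ratios depend on the processing. In the edgeR fit with offsets for GC content and length, log2 fold changes were 0.65 for *H2-K1* and 1.01 for *B2m*. In the same fit they were 0.09 for *Psmb9* and 0.28 for *Tap1*, against 0.16 and 0.53 without offsets. The *H2-K1* to *H2-D1* ratio was 1.09, 1.15, and 1.04 in the WT group against 0.939, 1.00, and 1.03 in the *Ifnar1*-/- group, a log2 difference of 0.15 ± 0.06 SE without overlap (exact permutation p = 0.1, adjusted p = 0.225), subject to the division of reads between these similar genes.

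**Figure D3:**
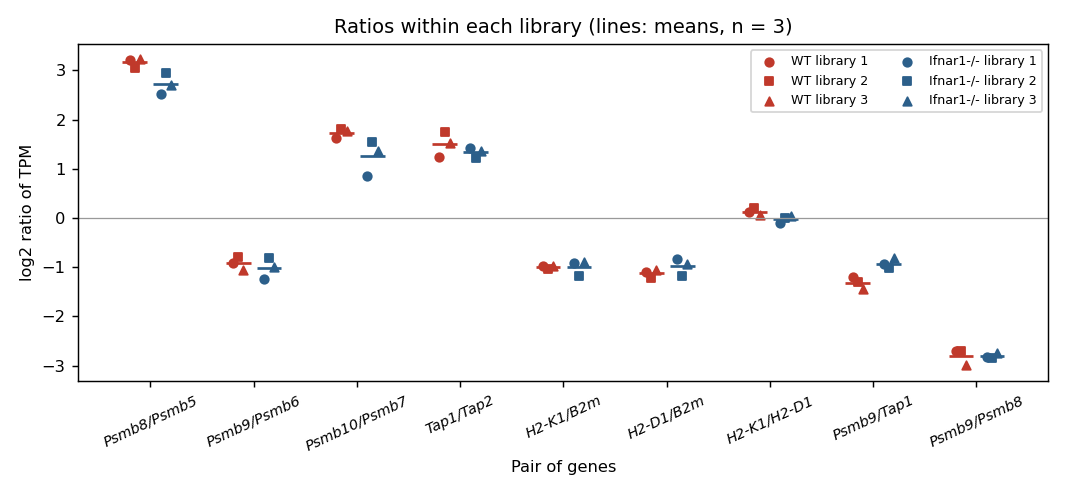
Log2 ratio of TPM between partner genes (vertical axis) in each of the 3 WT and 3 *Ifnar1*-/- libraries, with each point a library and lines for group means. *Psmb8*/*Psmb5* (ratios of 8.22 to 9.36 in WT against 5.78 to 7.75) and *Psmb10*/*Psmb7* are higher in all WT libraries, *Psmb9*/*Tap1* is lower, and *H2-K1*/*B2m* overlaps.

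Compared per transcript length, as TPM rescaled to the same total over protein-coding genes, *B2m* was the highest of the 10 genes in every library, at 6308 ± 539 in WT and 3736 ± 782 in *Ifnar1*-/- libraries (SD, n = 3 each). *H2-K1* (3165 ± 284 and 1856 ± 266) and *H2-D1* (2896 ± 260.0 and 1871 ± 193) followed. *Psmb8* (1113 ± 147 and 1014 ± 118) and *Tapbp* (957 ± 61.2 and 529 ± 179) took the 4th and 5th places, with *Psmb8* the highest of the immunoproteasome genes. *Tap1* (399 ± 71.1 and 276 ± 40.7) and *Psmb10* (310 ± 59.7 and 285 ± 33.8) came next. *Nlrc5* (179.7 ± 40.3 and 108 ± 5.30), *Psmb9* (161 ± 30.3 and 145 ± 15.8), and *Tap2* (139 ± 8.56 and 111 ± 24.7) were lowest and overlapped each other in rank. In this order *Psmb9* was above *Tap2* in all 6 libraries, whereas *H2-K1* and *H2-D1*, *Psmb8* and *Tapbp*, and *Tap1* and *Psmb10* each changed places between libraries.

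The 10 genes together held 16615, 15701, and 14566 TPM of protein-coding RNA in the WT group (libraries 1, 2, and 3) against 8231, 11412, and 10145 in the *Ifnar1*-/- group. All WT sums were higher, 1.57-fold on average (exact permutation p = 0.1). On the TPM as deposited, the sums were 5782, 8083, and 7223 in WT and 3557, 5889, and 4408 in *Ifnar1*-/- libraries, a 1.52-fold difference with overlap (exact permutation p = 0.2). A single 7SL RNA gene, *Rn7s2*, took 278102 TPM in WT library 1, the library with the lowest deposited sum of its group.

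Further steps of the class I pathway were read from lists of 94 other genes, of which 85 were tested. Of these, 7 were called higher in WT, against 1.67% of all genes tested, and none was called lower, against 0.462%. All 7 belonged to the nonclassical class I genes (6) or the regulators (1). None of 14 genes for other loading and trimming steps was called. Of these, 13 had a negative log2 fold change, where 48.2% of all genes tested were positive, and their median was -0.16. *Calr*, the calreticulin chaperone, was the most abundant of them (-0.09, adjusted p = 0.847, edgeR). Neither the 10 proteasome activator and assembly genes (median -0.19; *Psme1* 0.12, adjusted p = 0.773) nor the 11 other 20S subunits (median -0.26; *Psma4* -0.31, adjusted p = 0.300) held a call. Of the 8 cytosolic peptidases 7 were tested and none was called (median -0.18; *Tpp2*, which trims peptides, -0.18, adjusted p = 0.539). The class I ligand-side list had 3 of 5 genes tested and no call (*Lilrb4a* -0.07, adjusted p = 0.876). Among class II genes and their chaperone, 8 of 10 were tested, 4 were positive, 4 were negative, and none was called (median 0.00; *Cd74* 0.44, adjusted p = 0.549).

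The regulators of class I genes included 1 called gene of 16, against 2.13% called of all genes tested. *Stat2*, a subunit of the ISGF3 complex that type I IFNs activate, had 189, 123, and 139 normalized CPM in the WT group against 30.8, 44.1, and 35.3 in the *Ifnar1*-/- group. The groups were far apart, with log2 2.04 ± 0.20 SE (adjusted p = 0.000347, edgeR). The median log2 fold change of the 16 was 0.16, with 14 positive, against 48.2% of all genes tested. For comparison, *Irf9* (0.50, adjusted p = 0.0842, edgeR) and *Irf1* (0.01, adjusted p = 0.989), which were named after their values were seen, were not called.

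Of the nonclassical class I genes, whose products share the class I fold, 13 of 17 listed were tested. The median log2 fold change of the 13 was 0.82. Among them 6 were called, all higher in WT, against 1.67% of all genes tested. The 2 with the largest changes were *H2-T24* (91.1, 52.7, and 54.5 normalized CPM in the WT group against 9.62, 18.3, and 13.2 in the *Ifnar1*-/- group; log2 fold change 2.28 ± 0.27 SE, adjusted p = 0.00128, edgeR) and *H2-Q6* (219, 187, and 177 against 34.7, 68.5, and 60.3; 1.84 ± 0.23 SE, adjusted p = 0.00173). For both genes the lowest WT library was far above the highest *Ifnar1*-/- library. Separate values of nonclassical genes, like those of *H2-K1* and *H2-D1*, depend on how reads were divided between similar genes. The 2 with the smallest changes among those called were *H2-Q4* (1.01 ± 0.16 SE, adjusted p = 0.00719) and *H2-T23* (0.82 ± 0.16 SE, adjusted p = 0.0311), the last of these encoding Qa-1. The difference between classical and nonclassical genes was not tested gene by gene.

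**Figure D4:**
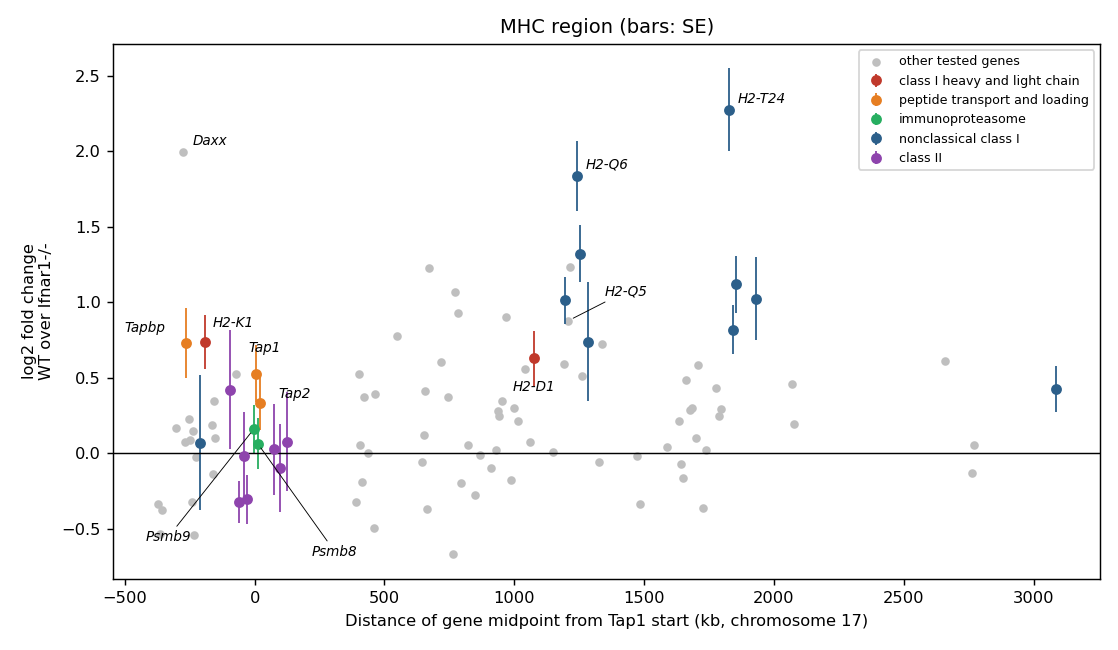
Log2 fold change of WT over *Ifnar1*-/- (vertical axis, bars SE for listed genes) by distance of the gene midpoint from the *Tap1* start (kb). Shown are the 103 tested genes in a region of chromosome 17 that spans the listed and tested class I and II genes of that chromosome. *Tapbp*, *H2-K1*, *H2-D1*, and *Tap1* lie above 0.5, *Psmb8* and *Psmb9* near 0, *H2-T24* (2.28) and *Daxx* (2.00) are the highest, and class II genes scatter around 0.

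Of the 10 class I genes 7 lie in the MHC region of chromosome 17, and the neighbours of all 10 were read in the same fit. The nearest or overlapping tested genes that are not members numbered 16, and their median log2 fold change was 0.05. Of these, 10 were positive and 1 was called, against 2.13% called of all genes tested. This was *Daxx*, a histone chaperone gene, with 196, 129, and 133 normalized CPM in the WT group against 34.5, 40.7, and 39.5 in the *Ifnar1*-/- group (log2 fold change 2.00 ± 0.19 SE, adjusted p = 0.000261, edgeR). It ends 0.309 kb before the annotated range of *Tapbp* on the same strand. That range starts at 33915899, whereas the window before the RefSeq start of *Tapbp* ends at 33919477. The WT libraries of *Daxx* were far above its *Ifnar1*-/- libraries, and whether reads of *Daxx* were counted in *Tapbp* was not tested. *H2-K2* beside *H2-K1* (0.07, adjusted p = 0.958) and *H2-DMb1* beside *Psmb9* (-0.31, adjusted p = 0.352) were not called. Across the 3464 kb region, 103 genes were tested. Of the 79 not on a list 2 were called, *Daxx* and *H2-Q5* (0.88, adjusted p = 0.0420, edgeR), near the 2.13% called of all genes tested. The median log2 fold change of the 79 was 0.15.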

How the data were processed

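RNA-seq of sorted CNS monocytes was taken from gene-level files of 3 WT and 3 *Ifnar1*-/- libraries, grouped by the deposited labels. The authors mapped reads with STAR 2.6.0c to GRCm38 and estimated an expected count per gene with RSEM 1.2.31, per the labels. Deposited TPM and FPKM are the authors' length-scaled values of the same estimates, and FPKM was not used. The labels and the methods of the study name different library kits. Gene names and positions came from GENCODE M21 (54165 of 54232 identifiers matched, 67 did not).

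Expected counts, of which 4.09% of values were not whole, were rounded and tested with edgeR 4.0.16 in R 4.3.3 (TMM, filterByExpr with a minimum count of 10, quasi-likelihood test, Benjamini-Hochberg adjustment over 11254 genes). Limma 3.58.1 (voom) and DESeq2 1.42.0, the tool of the study's methods, were alternatives, with RLE normalization, other filters, protein-coding genes only, a replicate block, offsets for GC content and length, and leaving out each library. Ratios and the main sums over the 10 class I genes used TPM. The sum over class I heavy chains, the share of *H2-K1* and *H2-D1*, and the marker sums used expected counts. Permutation tests of ratios and sums were exact, two-sided, and over libraries, in scipy 1.17.1. TPM was also rescaled to protein-coding genes. The sum over class I heavy chains and the sum per TMM-adjusted library size were added after seeing the data.

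The class I genes and the gene lists were chosen with earlier results of these data known. Besides the 10 genes, the text names *Psmb5*, *Psmb6*, and *Psmb7*, the called genes of each list (where over 4 were called, the 2 largest and 2 smallest changes, and where none was called, the gene with the highest mean normalized CPM), and the nearest tested neighbours. *H2-Q5*, *Ly6c2*, *Ccr2*, *Rn7s2*, *Irf1*, and *Irf9* were named after their values were seen. Promoter motifs were searched in RefSeq windows, and their letters were chosen after the windows had been read. Library totals were 7321380, 4531782, and 4946747 expected counts in WT and 6916101, 5811323, and 5442568 in *Ifnar1*-/- libraries 1, 2, and 3. On simulated counts for 11254 genes, of which 11100 were tested and 196 of those changed, the edgeR test recovered 47.4% of 2-fold and 94.9% of 4-fold changes, with 5.41% false calls and 0 in the wrong direction. The study sorted both genotypes from 3 recipient mice, so the groups share mice, and which libraries belong together is not stated. Values of some genes are not reported here.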

Additional observations from a re-analysis of the deposited data

How the results depend on the processing

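The 10 class I genes had the same sign of change in WT under all settings run, except *Psmb8*, which was -0.034 with offsets for GC content and length, -0.041 with these offsets and the replicate block, and between -0.045 and 0.167 when each library was left out. The number of the 10 called, 1 by edgeR, was 5 with DESeq2 (*H2-K1*, *H2-D1*, *B2m*, *Tapbp*, *Nlrc5*) and 5 with DESeq2 and a block, 4 with no filter on low counts, 2 with limma-voom, 0 with the replicate block, 0 with the GC and length offsets, with or without the block, and from 0 to 2 when each library was left out. Over all genes the calls were 188 higher and 52 lower, against 354 and 115 with DESeq2 and 610 and 262 with no filter, 141 and 7 without WT library 3, 112 and 7 without *Ifnar1*-/- library 1, and 110 and 10 without *Ifnar1*-/- library 3. Over the same leave-one-out fits, the log2 differences of ratios ranged from -0.022 to 0.20 for *Psmb9*/*Psmb6*, from 0.28 to 0.62 for *Psmb10*/*Psmb7*, from 0.33 to 0.54 for *Psmb8*/*Psmb5*, from -0.083 to 0.052 for *H2-K1*/*B2m*, and from -0.044 to 0.105 for *Psmb9*/*Psmb8*. Across genes, the departures of libraries of equal number from the means of their groups had correlations of 0.0906, 0.0278, and 0.275. Those of unequal number ran from -0.196 to 0.0920, the highest for WT library 1 with *Ifnar1*-/- library 2. These values do not settle whether libraries of equal number were paired. The main fit therefore left pairing out, and the replicate block was run as an alternative. The deposited files of both groups also carry the same 3 suffixes, whose meaning is not given in the sources used here, and whether libraries of equal number came from 1 mouse is not stated. With the block the calls over all genes were 182 and 38. Fold changes correlated with GC content (Spearman's rho 0.368) and length (0.185) over 11242 genes, and with these offsets the log2 fold change was 0.28 for *Tap1*, 0.09 for *Tap2*, 0.50 for *Tapbp*, and 1.01 for *B2m*. With 3 libraries against 3 a single exact test cannot fall below p = 0.1.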

Other observations

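Within the *Ifnar1*-/- group, library 2 had the highest normalized CPM of the 3 for all 10 class I genes, and library 1 had the lowest for 9 of them. WT library 1 was the highest WT library for 5 of the genes and WT library 2 for the other 5. The share of mitochondrial and ribosomal RNA was 23.6% in *Ifnar1*-/- library 1 and 16.0% in *Ifnar1*-/- library 2, and its part in the order was not tested.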
